A study of Caenorhabditis elegans with 6 samples.

Results

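The Hox cluster genes of the nematode Caenorhabditis elegans were examined in embryos of the mutant strain yap-1(ys38) and of the wild-type strain N2. The members were the 6 genes ceh-13, lin-39, mab-5, egl-5, nob-1 and php-3, and they were found as the probe sets to which the platform annotation gives exactly 1 of these symbols. This selected 9 of the 22548 probe sets that are not controls, with 3 for nob-1, 2 for mab-5 and 1 for each other gene, and no probe set gave a Hox symbol among several. Total RNA of whole embryos, released by bleaching egg-bearing adults pooled from several plates, was hybridised to 1-colour Affymetrix arrays. There were 3 biological replicates of yap-1(ys38) and 3 of N2, with 1 array each, and no treatment was given to either strain. The study excluded wild type replicate 2 because it differed from its 2 companions, so strains were compared over 3 yap-1(ys38) arrays and wild type replicates 1 and 3, with the values of replicate 2 given beside them. The labels name the allele and do not state what it changes in yap-1.

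Hox genes encode homeodomain transcription factors that tell cells where they lie along the head-to-tail axis, each in its own stretch of the body. In C. elegans ceh-13, the labial counterpart, acts towards the anterior, lin-39, the counterpart of Deformed and Sex combs reduced, in the midbody, mab-5, of the Antennapedia group, and egl-5, related to Abdominal-B, further back, and nob-1 and php-3, also related to Abdominal-B, at the posterior end. Only some of them are needed for the embryo to form, ceh-13 and the nob-1 and php-3 pair among them, and the others are known mostly for later roles in migrating neuroblasts, the vulva and the male tail. The product of yap-1 is the worm YAP protein, a coactivator of transcription held back by the Hippo kinases, and the arrays were run to find targets of the pathway that maintain cell polarity. In the RefSeq gene table (assembly WBcel235) all 6 genes lie on chromosome III. lin-39 and ceh-13 are direct neighbours there, 37 protein-coding genes separate ceh-13 from mab-5 and 1 separates mab-5 from egl-5. A gap of 894 protein-coding genes follows before php-3 and nob-1, which are again direct neighbours.

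The arrays had median intensities from 118 to 133, apart from 86.6 in wild type replicate 2, and their number limits the precision. The yap-1 gene, covered by 1 probe set, read 371, 260 and 302 in yap-1(ys38) replicates 1, 2 and 3, against 267, 443 and 555 in wild type replicates 1, 2 and 3. Its log2 fold change was -0.32 (95% interval -1.10 to 0.45, limma adjusted p = 1), and since the position of the probe set relative to the allele is unknown, its level is no check of the genotype. All 8 markers of embryonic cell fates were bright enough to be tested, among them the muscle factor hlh-1, the gut factor elt-2 and the epidermal factor lin-26. Replicates with the same number in both strains deviated together, so differences within each number are also given below.

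Of the 9 Hox probe sets, 6 passed the filter on dim signals (a geometric mean over the 6 arrays above 53.5) and were tested, covering ceh-13, lin-39, mab-5 and nob-1. None of the 6 differed between strains at an adjusted p under 0.05, and none had an unadjusted p under 0.05. Over all 13529 probe sets tested limma called 0%, and 1.04% had an unadjusted p under 0.05. The median log2 fold change over the brightest probe set of each of the 6 genes was -0.043, beside 0.00624 over all probe sets tested. At 5 of the 6 probe sets tested the whole 95% interval lay inside a 2-fold change in either direction.

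**Figure D1:**
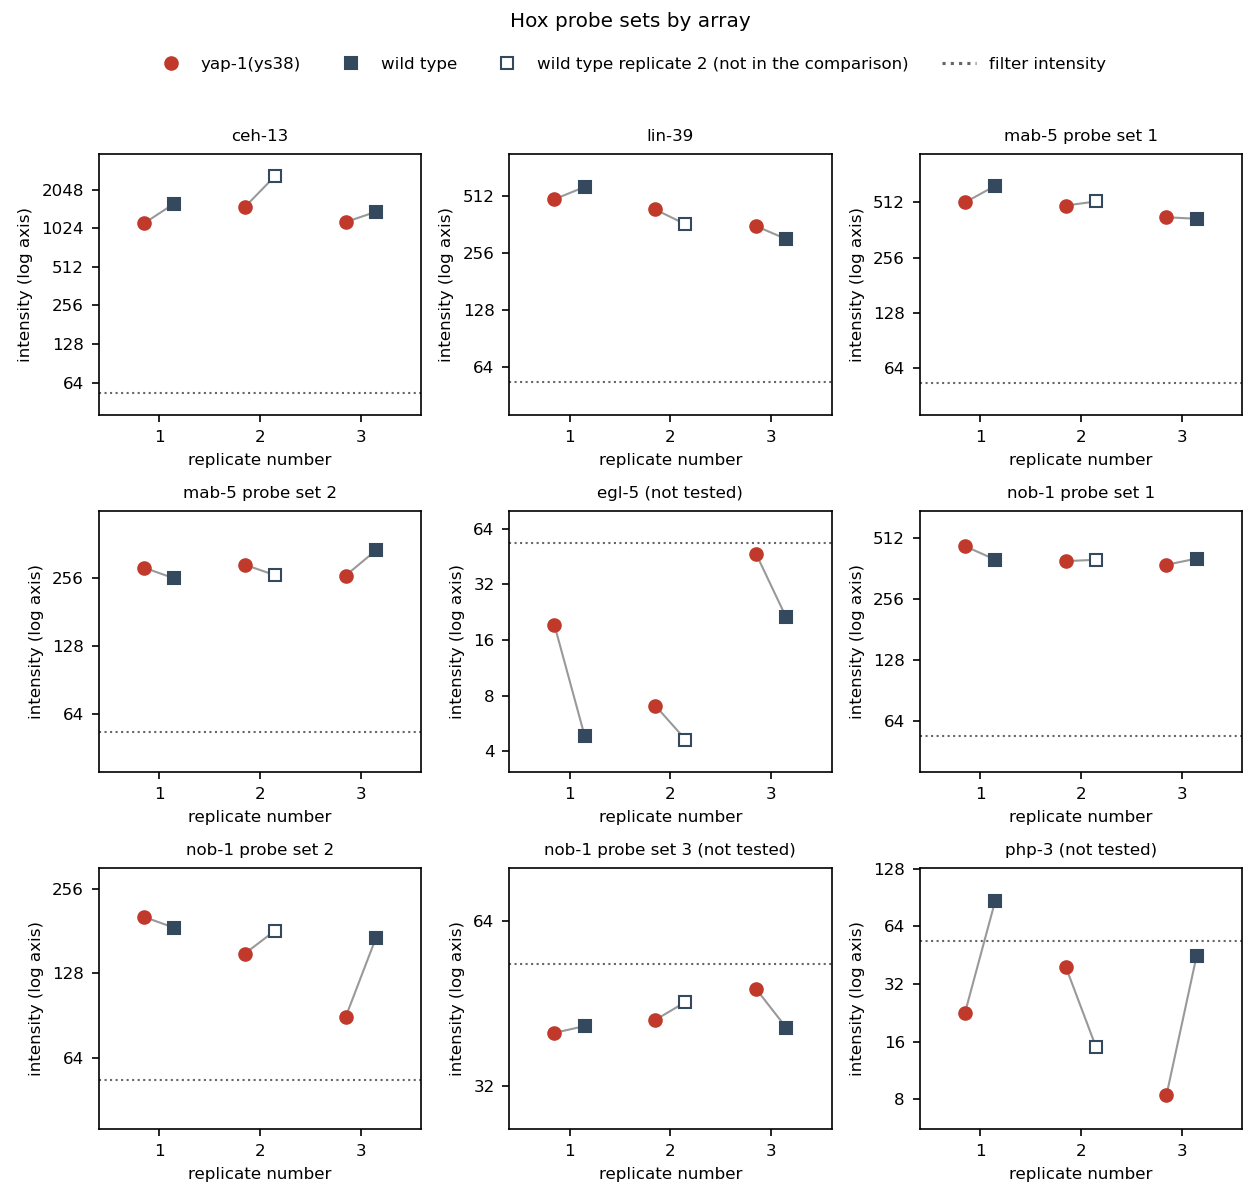
Intensity of each of the 9 Hox probe sets on a log axis, by replicate number, in the order of the genes along the body axis. Circles are yap-1(ys38) arrays and squares wild-type arrays, a grey line joins arrays with the same number, the open square is wild type replicate 2 and the dotted line is the filter intensity of 53.5. The ceh-13 circle lies below its square at each number, while lin-39 and the brighter mab-5 probe set are highest at number 1 and lowest at number 3 in both strains.

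ceh-13 read 1119.6, 1500.0 and 1145.3 in yap-1(ys38) replicates 1, 2 and 3, against 1597.5 and 1376.1 in wild type replicates 1 and 3. The strains overlapped, since yap-1(ys38) replicate 2 lay between both wild-type arrays, and the means were 10.28 ± 0.23 (SD, n = 3) in yap-1(ys38) and 10.53 ± 0.15 (SD, n = 2) in wild type on the log2 scale. The log2 fold change was -0.25 (SE 0.20, 95% interval -0.72 to 0.21, limma adjusted p = 1), which in fold runs from 0.608 to 1.16. The interval included 0. Within each replicate number ceh-13 was lower in yap-1(ys38), by a log2 difference of -0.51 at number 1, -0.80 at number 2 and -0.26 at number 3, and 11% of all probe sets tested were lower in all 3 numbers. With all 6 arrays and the replicate number as a block the log2 fold change was -0.53 (SE 0.19) with an unadjusted p of 0.0234 (limma), a level that 2.43% of all probe sets reached, and an adjusted p of 0.93. Wild type replicate 2 read 2618.9, the highest of the 6 arrays, as it was at 32.4% of all probe sets tested. With it in the fit the log2 fold change was -0.53, against -0.25 over the arrays kept.

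That array also stood apart in markers of embryonic stage. The intensities of 8 maternal and early embryo genes, such as the germline factor pie-1, summed to 21784 to 28208 in yap-1(ys38), against 34849 in wild type replicate 2 and 23807 and 27685 in wild type replicates 1 and 3. All of them but mex-3 were highest in wild type replicate 2. mex-3 read 4723.4 there and 5290.4 in yap-1(ys38) replicate 3. The brightest, pos-1, read 12111.9 in wild type replicate 2 and 11899.4 in wild type replicate 3. For 10 genes of late, differentiating embryos, such as the muscle myosin myo-3, the sums were 50218 to 61431 in yap-1(ys38), against 42326 in wild type replicate 2 and 58149 and 66907 in replicates 1 and 3. Members of this list differed in replicate 2. There sym-1 was at its highest of the 6 arrays and act-4 and noah-1 were not at their lowest, while all other members were lowest. All 18 markers were measured and bright enough to be tested, none was at 0, and their part in the ceh-13 values was not tested. In whole embryos fewer cells of a kind and less RNA per cell cannot be told apart.

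lin-39 read 489.7, 432.5 and 353.5 in yap-1(ys38) replicates 1, 2 and 3, against 568.8 and 302.1 in wild type replicates 1 and 3 and 361.5 in replicate 2. The wild-type arrays enclosed all yap-1(ys38) arrays, so the spread within wild type exceeded the difference between strain means. The log2 means were 8.72 ± 0.24 (SD, n = 3) in yap-1(ys38) and 8.70 ± 0.65 (SD, n = 2) in wild type, with a log2 fold change of 0.02 (SE 0.31, 95% interval -0.68 to 0.73, limma adjusted p = 1). Single arrays set its sign, as the log2 fold change was 0.48 when wild type replicate 1 was left out and -0.43 when replicate 3 was.

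The brighter mab-5 probe set behaved much like lin-39. It read 511.7, 492.4 and 425.3 in yap-1(ys38), against 630.2 and 417.3 in wild type replicates 1 and 3 and 518.3 in replicate 2, again with the wild-type arrays on both sides. The log2 fold change was -0.11 (SE 0.25, 95% interval -0.68 to 0.46, limma adjusted p = 1), moving to -0.41 when wild type replicate 3 was left out and to 0.19 when replicate 1 was. The second mab-5 probe set read 283.2, 291.7 and 261.2 in yap-1(ys38), against 254.1 and 337.1 in wild type replicates 1 and 3 and 262.6 in replicate 2 (log2 fold change -0.07, SE 0.25). Both gave a strain difference near 0, yet their patterns over the 6 arrays ran opposite ways (Pearson r = -0.60, a description of 6 shared arrays). The identifier of the brighter one carries the suffix that marks probes matching more than 1 transcript, so it may not read mab-5 alone. That suffix is also on the egl-5 probe set and the second nob-1 probe set, described below, to which the same limit applies.

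egl-5 was too dim to be tested. Its probe set read 19.27, 7.07 and 46.88 in yap-1(ys38), against 4.835 and 21.18 in wild type replicates 1 and 3 and 4.628 in replicate 2, all under the filter intensity. It was higher in yap-1(ys38) at each replicate number, by log2 differences of 1.99, 0.61 and 1.15. The same held at 12.5% of the probe sets tested, a brighter set that leaves egl-5 out. Arrays of 1 strain differed as widely, and signals this low do not show whether the transcript was present. In a fit without the filter the log2 fold change was 0.87 (95% interval -1.75 to 3.50, limma adjusted p = 1), with 1.94 when wild type replicate 3 was left out and -0.19 when replicate 1 was.

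nob-1 was measured by 3 probe sets that did not behave alike. The brightest was the steadiest of the 6 Hox probe sets tested, and all its arrays lay within 1.24-fold. It read 467.1, 393.7 and 377.6 in yap-1(ys38), against 400.6 and 405.4 in wild type replicates 1 and 3 and 399.8 in replicate 2, so the yap-1(ys38) arrays lay on both sides of wild type. The log2 fold change was 0.03 (SE 0.23, 95% interval -0.49 to 0.55, limma adjusted p = 1). The second read 203.3, 150.4 and 89.24 in yap-1(ys38), against 186.0 and 170.6 in wild type replicates 1 and 3 and 181.7 in replicate 2. Its log2 fold change of -0.35 (SE 0.38, 95% interval -1.22 to 0.52, limma adjusted p = 1) came with the widest interval of the 6 probe sets tested. It rested on yap-1(ys38) replicate 3, without which it was -0.03. The third read 39.98 to 48.13 in yap-1(ys38), against 40.88 to 45.52 in the 3 wild-type arrays, under the filter throughout.

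php-3, the neighbour of nob-1, was also too dim to be tested. It read 22.51, 39.45 and 8.375 in yap-1(ys38), against 86.51 and 44.95 in wild type replicates 1 and 3. It was the only one of the 9 probe sets whose strains did not overlap over these arrays. Strains did not overlap at 10.8% of all probe sets tested, a brighter set that leaves php-3 out. Wild type replicate 2, at 15.04, lay within the yap-1(ys38) range, and 5 of the 6 arrays lay under the filter intensity. Without the filter the log2 fold change was -1.68 (95% interval -3.66 to 0.31, limma adjusted p = 1), with log2 differences of -1.94, 1.39 and -2.42 at numbers 1, 2 and 3. It was -0.99 with all 6 arrays, -0.86 with values under 32 set to 32 and -0.82 with an offset of 32, so its size is uncertain.

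**Figure D2:**
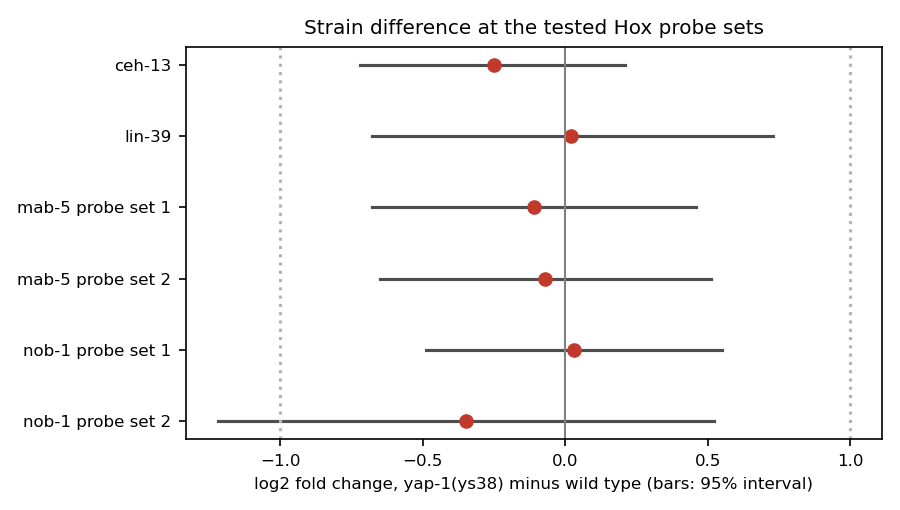
Log2 fold change of yap-1(ys38) over wild type replicates 1 and 3 at the 6 Hox probe sets tested, with 95% intervals from limma. Dotted lines mark a 2-fold change in either direction, every interval includes 0, and the lower end for nob-1 probe set 2, at -1.22, is the only end beyond a dotted line.

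Some Hox probe sets ranked the replicate numbers the same way in both strains, which was noticed after the values were seen. lin-39, the brighter mab-5 probe set and the second nob-1 probe set were highest at number 1, lower at number 2 and lowest at number 3 in both strains, an order shared by 4.21% of all probe sets tested. The other tested probe sets of mab-5 and nob-1 and that of ceh-13 did not have this order. For mab-5 and nob-1 it thus held at some probe sets of the gene and not at others, and lin-39 has only 1. Some common order of the 3 numbers in both strains was found at 28% of all probe sets tested. The egl-5 probe set, too dim to be tested, had a common order too, but with number 3 highest and number 2 lowest. In a fit chosen after these values were seen, with strain in the model and all 6 arrays, number 3 minus number 1 gave a log2 difference of -0.69 for lin-39 (SE 0.30, 95% interval -1.39 to 0.01, limma unadjusted p = 0.0518, adjusted p = 0.674). It gave -0.43 for the brighter mab-5 probe set (SE 0.28, adjusted p = 0.778) and -0.66 for the second nob-1 probe set (SE 0.42, adjusted p = 0.777). It gave 0.15 for the second mab-5 probe set (SE 0.33) and -0.14 for the brightest nob-1 probe set (SE 0.29). None of the 6 Hox probe sets passed, where 0.037% of all probe sets did and 7.37% had an unadjusted p under 0.05. For ceh-13 the same contrast was -0.09 (SE 0.23).

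Yolk transcripts, which adults make and embryos do not, followed the numbers at 1 and 3. The intensities of 4 of 5 vitellogenin genes were measured, none was at 0, and they summed to 4466 and 6877 at number 1 in yap-1(ys38) and wild type, 870 and 11767 at number 2, and 236 and 126 at number 3. RNA integrity, taken as log2 of the 3′ over the 5′ signal and averaged over 4 control transcripts, was 2.86, 3.00 and 3.07 in yap-1(ys38) replicates 1, 2 and 3, against 2.68, 3.64 and 3.74 in the wild-type arrays of the same numbers. With the gly14 control added it was 2.07, 2.34 and 2.75 in yap-1(ys38), against 2.40, 2.67 and 3.11 in wild type. By both averages the 3′ signal outweighed the 5′ signal most in wild type replicate 3, an array kept in the comparison. The part of yolk transcripts or RNA integrity in the Hox values was not tested.

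**Figure D3:**
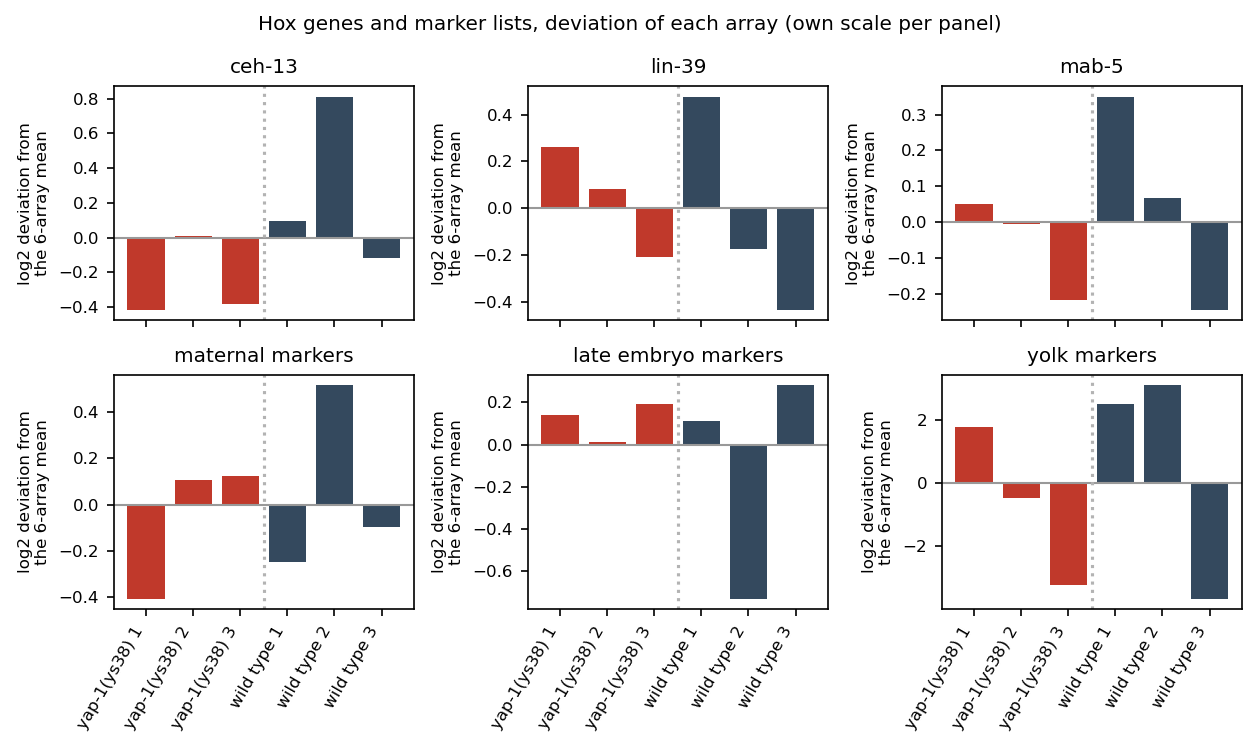
Log2 deviation of each array from the mean of the 6 arrays, for ceh-13, lin-39 and mab-5 (brighter probe set) in the upper row and for the mean of the maternal, late embryo and yolk marker lists in the lower row, each panel with its own scale. Bars of yap-1(ys38) stand left of those of wild type. Wild type replicate 2 has the highest ceh-13 and maternal bars and the lowest late embryo bar, and both arrays numbered 3 have the lowest lin-39, mab-5 and yolk bars of their strain.

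Genes that work with, upstream or downstream of Hox genes were taken as 6 related lists of 55 genes. Of these, 54 were measured and 50 were tested. None passed or had an unadjusted p under 0.05 (limma). Of all 10237 genes tested none passed either, and 96 had an unadjusted p under 0.05. Hox proteins bind DNA with partners of the PBC and Meis homeodomain families, and these cofactors had log2 fold changes of 0.08 (SE 0.14) for ceh-20, -0.01 (SE 0.28) for ceh-40, -0.22 (SE 0.51) for ceh-60 and 0.01 (SE 0.15) for unc-62. The PBC gene ceh-20 read 4681.5, 4891.3 and 4294.2 in yap-1(ys38), against 4223.9 and 4512.0 in wild type replicates 1 and 3, which overlapped. Its other tested probe set had a log2 fold change of -0.07.

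Polycomb-type proteins keep Hox genes silent outside their domains, and trithorax-type proteins keep them active. Among Polycomb and other repressor genes 8 were tested, with 4 above and 4 below 0 (median 0.02). Those with the lowest p were sop-2, a SAM-domain Polycomb-like protein, at 0.33 (SE 0.24), and its partner sor-1 at 0.19 (SE 0.20). Of 8 trithorax-type and H3K27 demethylase genes, 6 lay higher and 2 lower (median 0.05), with the bromodomain protein lin-49 at -0.34 (SE 0.24) and the Ash2 counterpart ash-2 at 0.16 (SE 0.19). Probe sets of ash-2 disagreed in sign, from -0.21 to 0.23. So did those of other genes in the related lists, among them mes-3 (-0.17 and 0.14) and lin-17 (0.11 and -0.21).

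Wnt signals switch mab-5 and lin-39 on in migrating neuroblasts and vulval precursors. Of 15 Wnt genes tested, 9 lay higher and 6 lower (median 0.02). lit-1, the Nemo-like kinase that acts on the TCF factor POP-1, came closest to the threshold of all 50 genes. It read 1729.1, 1762.3 and 1489.7 in yap-1(ys38), against 1357.2 and 1216.6 in wild type replicates 1 and 3 and 1457.5 in replicate 2. All yap-1(ys38) arrays lay above all wild-type arrays. Against wild type replicates 1 and 3 alone, and in either direction, 10.8% of all probe sets tested had no overlap. Chosen as the lowest p of the 50, lit-1 had a log2 fold change of 0.37 (SE 0.18, unadjusted p = 0.0739, limma adjusted p = 1) and 0.46 and 0.28 at its other probe sets. sys-1, a beta-catenin, stood at -0.21 (SE 0.26).

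Of 6 genes reported as Hox targets and tested, 5 lay higher and 1 lower (median 0.09). egl-1, the cell death activator, stood at 0.21 (SE 0.24), the GATA factor gene egl-18 at 0.13 (SE 0.22) and psa-3, a Meis-related target of NOB-1, at 0.11 (SE 0.25). Of 9 other homeobox genes that pattern the axis, 2 lay higher and 7 lower (median -0.08), with the Engrailed counterpart ceh-16 at -0.32 (SE 0.24), ceh-2 at -0.37 (SE 0.34) and the Caudal counterpart pal-1, which specifies posterior blastomeres, at 0.20 (SE 0.21). Over all 10237 genes tested 5027 lay higher and 5210 lower.

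**Figure D4:**
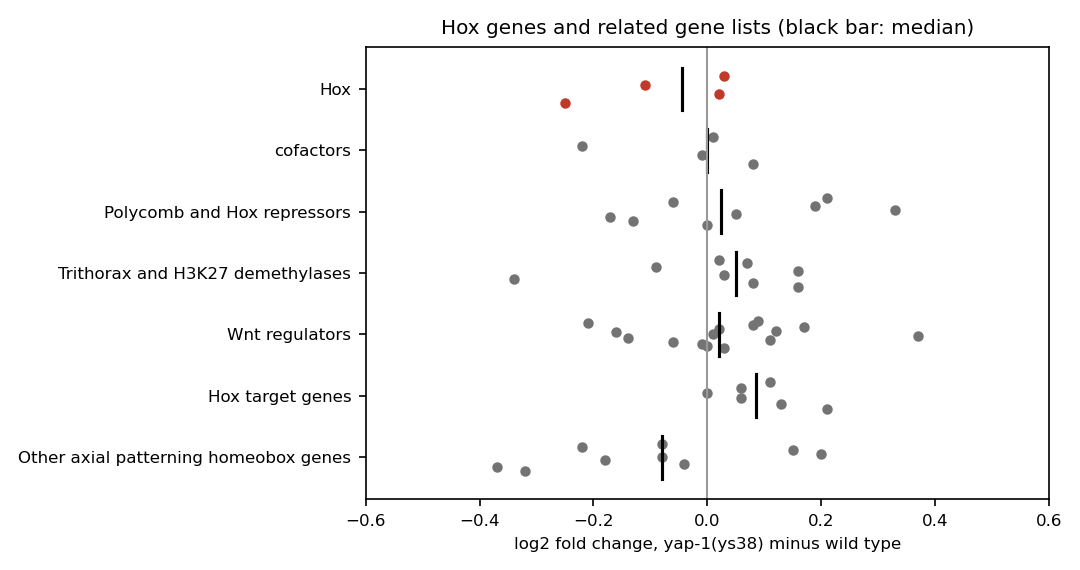
Log2 fold change of yap-1(ys38) over wild type replicates 1 and 3 for each tested Hox gene and each tested gene of the 6 related lists, 1 point per gene at its brightest probe set, with a black bar at each list's median. The points lie between -0.37 for ceh-2 and 0.37 for lit-1, the Hox genes between -0.25 and 0.03.

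The 7 protein-coding genes next to the Hox genes on chromosome III were all tested, and none passed, as none did of all 10237 genes tested. 3 lay higher and 4 lower, from -0.24 to 0.31. cyk-7, between mab-5 and egl-5, had a log2 fold change of 0.31 (SE 0.23), egl-45, on the far side of egl-5, -0.17 (SE 0.18), and lgc-12, beside ceh-13, 0.26 (SE 0.40). zyg-8 and cest-12, on either side of php-3 and nob-1, stood at 0.20 (SE 0.48) and -0.24 (SE 0.44).

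Among the Hox genes themselves, each at its brightest probe set, the log2 values of lin-39 and mab-5 ran most alike over the 6 arrays (Pearson r = 0.87). Those of ceh-13 and egl-5 ran most opposite (r = -0.79), but egl-5 lay under the filter intensity on all 6 arrays. Both r values only describe the same 6 arrays. The 2 other genes most like each member over the 6 arrays, of 10233 compared, were phf-10 and rab-33 for ceh-13 (r = 0.995 and 0.992) and C37H5.13 and C34F6.7 for lin-39 (0.992 for both). They were agxt-1 and Y23H5B.7 for mab-5 (0.993 and 0.986), and C10A4.3 and a gene known only by its cosmid-style name for nob-1 (0.984 and 0.992). For the dim members they were ptr-3 and Y71F9B.13 for egl-5 (0.983 and 0.970) and mtpn-1 and ugt-48 for php-3 (0.991 and 0.967). Over so few arrays, 89 genes had an r over 0.95 with ceh-13, 47 with lin-39, 19 with mab-5, 13 with egl-5, 11 with nob-1 and 5 with php-3.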

How the data were processed

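The authors deposited Affymetrix intensities, 1 linear value per probe set and array, made with Microarray Suite 5.0 and globally scaled in Genplex 3.0, per the labels and the series' design text. Such scaling hides any change in total RNA. A mean trimmed by 2% at both ends came to 500.1 on each array. Detection calls were not analysed here.

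Control probe sets (77) were dropped. Of the other 22548, 20766 had 1 gene symbol, 887 several and 895 none. Probe sets with a mean log2 intensity above the 40th percentile were tested with limma 3.58.1 in R 4.3.3 (intensity trend, two-sided, Benjamini-Hochberg over all probe sets tested). The brightest probe set stood for a gene. Named genes were all members, the neighbours, and by rule the 2 genes of each list with the lowest p and the 2 most like each member, with further list members given by value. The test was tried on simulated data. The members and lists were chosen with earlier results of these data known.

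Replicate numbers come from the sample titles. After subtracting strain means, arrays sharing a number correlated at 0.364, 0.345 and 0.445. They were treated as pairs only in the differences within each number and in the fits with a replicate block. The main fit of strains, with its intervals and adjusted p, did not use the numbers. Alternatives varied the arrays, the replicate block, normalization, filter, floor, offset and variance model, used the methods' t-test, or left out 1 replicate at a time.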

Additional observations from a re-analysis of the deposited data

Results flagged for a closer look

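ceh-13 read 2619 in wild type replicate 2, an array outside the comparison of strains, above each of the other 5 arrays. That array was the highest of the 6 at 32.4% of all probe sets tested.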

How the results depend on the processing

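No Hox probe set passed the adjusted test in limma under any alternative run, nor by the methods' t-test. Over these alternatives the adjusted p of the 4 genes tested ran from 0.881 to 1. Over all probe sets 0 passed in limma (141 at an unadjusted p under 0.05), and 0 by the methods' t-test after adjustment (202 before it). With the replicate number as a block 12 passed over the arrays kept, where number 2 has no wild-type partner, none of them a Hox probe set. With the block and all 6 arrays 0 passed (329 at an unadjusted p under 0.05, lowest adjusted p 0.93), and the block changed no call of a Hox gene. Leaving out 1 replicate gave 0 to 3 over all probe sets, the 3 without wild type replicate 1. The median Hox log2 fold change ran from -0.385, without wild type replicate 3, to 0.029 on leaving out 1 replicate. ceh-13 stayed below 0 under every alternative run, from -0.53 to -0.15. On leaving out 1 replicate lin-39 ran from -0.43 to 0.48, mab-5 from -0.41 to 0.19 and nob-1 from -0.06 to 0.09. The other tested nob-1 probe set gave -0.35. The cause of these changes of sign was not tested, and they all lie within the intervals given. Signals under the filter limit what can be said of egl-5 and php-3.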
